A study of Mus musculus with 27 samples.

Results

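The comparison described here set hepatic stellate cells (HSCs) taken 24 h after the last of a series of carbon tetrachloride (CCl4) injections against HSCs of healthy mice. Its members were the 4 chronic 24 h and the 4 healthy libraries, 8 of the 27 bulk RNA-seq libraries of the series, chosen by their labels, and every gene in the count table. Of 53379 genes in the table, 18758 had enough counts to be tested. The animals were male Balb/c mice. Chronic mice were 8 to 10 weeks old at the start and received 8 intraperitoneal injections of 0.5 µL CCl4 per gram of body weight in mineral oil over 4 weeks, given semi-weekly. Healthy mice were 10 to 12 weeks old and were not injected, so that no group received mineral oil alone and the effect of the vehicle and of the injection cannot be told apart from that of CCl4. Chronic mice were sampled after their 4-week course, so age at sampling also differed between the groups and cannot be told apart either. Cells were freed by perfusion of the liver with pronase and collagenase and sorted by their ultraviolet autofluorescence, which comes from stored vitamin A, and RNA was taken without culture. Cells that had lost their vitamin A would fall outside such a gate. According to the methods each repeat was a separate experiment; how many animals went into each library was not stated.

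HSCs lie between the sinusoidal endothelium and the hepatocytes and store most of the body's vitamin A as retinyl esters in lipid droplets. CCl4 is turned into a radical by cytochrome P450 in pericentral hepatocytes and kills them, and repeated dosing leads to scarring. HSCs that respond to such injury take on features of myofibroblasts: they make α-smooth muscle actin, secrete fibrillar collagens and the enzymes that cross-link them, and are the main source of scar matrix in this model.

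The healthy libraries held 10792560 to 12596066 counts and the chronic 24 h libraries 6947304, 7580709, 12234912 and 13045948 counts, in the order of replicates 1 to 4. That order is kept for every set of 4 values below, and levels are in CPM, counts relative to the scaled library total, unless stated. The 2 chronic libraries of lower depth, replicates 1 and 2, also carried more macrophage RNA than replicates 3 and 4, as described next. Healthy replicate 4 stood somewhat apart, with 18807 genes detected and a correlation of 0.902 to 0.908 with the other healthy libraries. Counts of a gene differ between bulk samples both when fewer cells of a type are present and when each cell holds less RNA, and these data cannot separate the cases.

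The cells carried the defining genes of HSCs in every library, and most of those genes were lower in the chronic group. Of the 20 identity genes checked, 2 were called higher and 13 lower, with a median log2 fold change of -1.83. A call means an adjusted p below 0.05 in edgeR's quasi-likelihood test and a change above 2-fold. Over all tested genes, 11.2% were called higher and 8.11% lower, 19.3% in all, and the median log2 fold change was -0.03. Summed over the list, the identity genes made up 40760 to 61660 CPM in healthy and 19420 to 22200 CPM in chronic libraries. Lrat, the enzyme that esterifies retinol for storage, measured 2175, 822, 1548 and 2630 CPM in healthy and 1284, 974, 1003 and 1088 CPM in chronic libraries. Its groups overlapped and its change was not called (log2 fold change -0.72, SE 0.31, adjusted p = 0.0826). Des, the intermediate filament desmin of HSCs and muscle, measured 584, 554, 563 and 446 CPM in healthy and 640, 643, 706 and 856 CPM in chronic libraries. Its groups did not overlap, but its log2 difference of 0.41 was below the 2-fold limit, with an adjusted p of 0.0719.

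Several identity genes fell by wide margins, while others such as Dcn and Hand2 fell only just beyond the 2-fold limit. Both are given further below. Vipr1, the receptor for vasoactive intestinal peptide, measured 3729, 4187, 4222 and 3584 CPM in healthy and 518, 295, 444 and 349 CPM in chronic libraries. Every chronic library was far below every healthy library (log2 fold change -3.29, SE 0.28, adjusted p = 1.05e-08). Colec11, a secreted collectin of innate immunity, measured 3481, 3542, 3539 and 2597 CPM in healthy and 619, 380, 372 and 349 CPM in chronic libraries, again with no overlap (log2 fold change -2.94, SE 0.25, adjusted p = 7.2e-09). Its relative Colec10 fell by 2.33 on the log2 scale and Ecm1, a secreted matrix protein that is abundant in healthy HSCs, by 2.12. Rgs5, a regulator of G-protein signalling typical of pericytes, measured 3518, 3083, 3405 and 3006 CPM in healthy and 687, 675, 954 and 780 CPM in chronic libraries (log2 fold change -2.07, SE 0.25, adjusted p = 1.42e-06). Reln, the secreted glycoprotein reelin, fell by 1.86. Gfap, an intermediate filament shared with astrocytes, fell by 3.13, from a mean of 51.6 to 5.88 CPM. The 2 identity genes called higher were Sparcl1, a matricellular protein (920 to 955 CPM in healthy and 1811 to 2871 CPM in chronic libraries; log2 fold change 1.27, SE 0.14, adjusted p = 2.32e-07), and Pdgfrb, the receptor of platelet-derived growth factor. Pdgfrb was at 866 to 1262 CPM in healthy and 1978 to 2342 CPM in chronic libraries with a log2 fold change of 1.03, and its call was lost without chronic replicate 1 (0.99), healthy replicate 1 (0.96) or healthy replicate 4 (0.95).

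Markers of other cell types were checked in the same libraries. Of 19 macrophage and Kupffer cell genes, 13 were called higher and 0 lower, and their summed level was 394, 235, 650 and 925 CPM in healthy and 3935, 5063, 858 and 1653 CPM in chronic libraries. The chronic libraries of lower depth were thus the highest, and chronic replicate 3 lay within the healthy range. With those 2 libraries left out, 8 of the 19 were called higher. Lyz2, the lysozyme of myeloid cells, measured 44, 24.6, 55.8 and 113 CPM in healthy and 1490, 2336, 280 and 717 CPM in chronic libraries (log2 fold change 4.35, SE 0.56, adjusted p = 2.87e-06). The genes of resident Kupffer cells did not pass the test: Clec4f, a Kupffer cell lectin, was at 49 to 218 CPM in healthy and 27.4 to 153 CPM in chronic libraries with an adjusted p of 0.623, and Vsig4, a complement receptor, at 6.83 to 38.8 CPM in healthy and 9.65 to 58.5 CPM in chronic libraries with an adjusted p of 0.609. Of 15 genes of monocyte-derived and lipid-associated macrophages, 14 were called higher and 1 lower, with sums of 359 to 526 CPM in healthy and 1779 to 3518 CPM in chronic libraries. The chronic sums of 2130, 3518, 1784 and 1779 CPM include Spp1, whose values are given below with the matrix proteins and form a large part of them. Trem2, a lipid receptor of such macrophages, measured 0, 0, 0.253 and 0 CPM in healthy and 19.3, 48, 9.91 and 12.8 CPM in chronic libraries. It was above the healthy range in all 4, and its log2 fold change of 8.16 (adjusted p = 2.76e-06) was 7.48 without chronic replicate 2 and 10.88 without healthy replicate 3.

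Other leukocyte markers were at low levels and mostly higher. Neutrophil genes summed to 0.39 to 2.18 CPM in healthy and 18.6 to 54.9 CPM in chronic libraries, with 6 of 7 tested members called higher; S100a8, Retnlg, Ngp and Mpo had no count in any healthy library. T and NK cell genes summed to 1.91 to 5.53 and 23.2 to 35.4 CPM, with 5 of 12 called higher, and B and plasma cell genes to 7.89 to 32.8 and 46.8 to 121 CPM, with 4 of 9. Without the libraries of lower depth those counts were 5, 2 and 0; the T and NK cell count was also 3 without healthy replicate 2, and the B and plasma cell count 2 without chronic replicate 2. Dendritic cell genes summed to 133 to 212 CPM in healthy and 290 to 930 CPM in chronic libraries (5 of 10 called higher). Sinusoidal endothelial genes went the other way: 7 of 15 were called lower, with sums of 272 to 893 CPM in healthy and 112 to 354 CPM in chronic libraries. That count was 3 without healthy replicate 3 and 4 without chronic replicate 3 or 4. Hepatocyte genes summed to 1011 to 7936 and 1105 to 4602 CPM and overlapped, and 2 of 20 were called lower. Of 7 cholangiocyte genes only Spp1 and Sox9 were called, both higher, while Krt19 and Krt7, the keratins that define bile duct cells, stayed at or below 2.7 CPM in all 8 libraries. Portal fibroblast and mesothelial genes summed to 188 to 351 and 662 to 1073 CPM (7 of 12 called higher). The part that such cells had in the gene groups below was not tested.

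**Figure D1:**
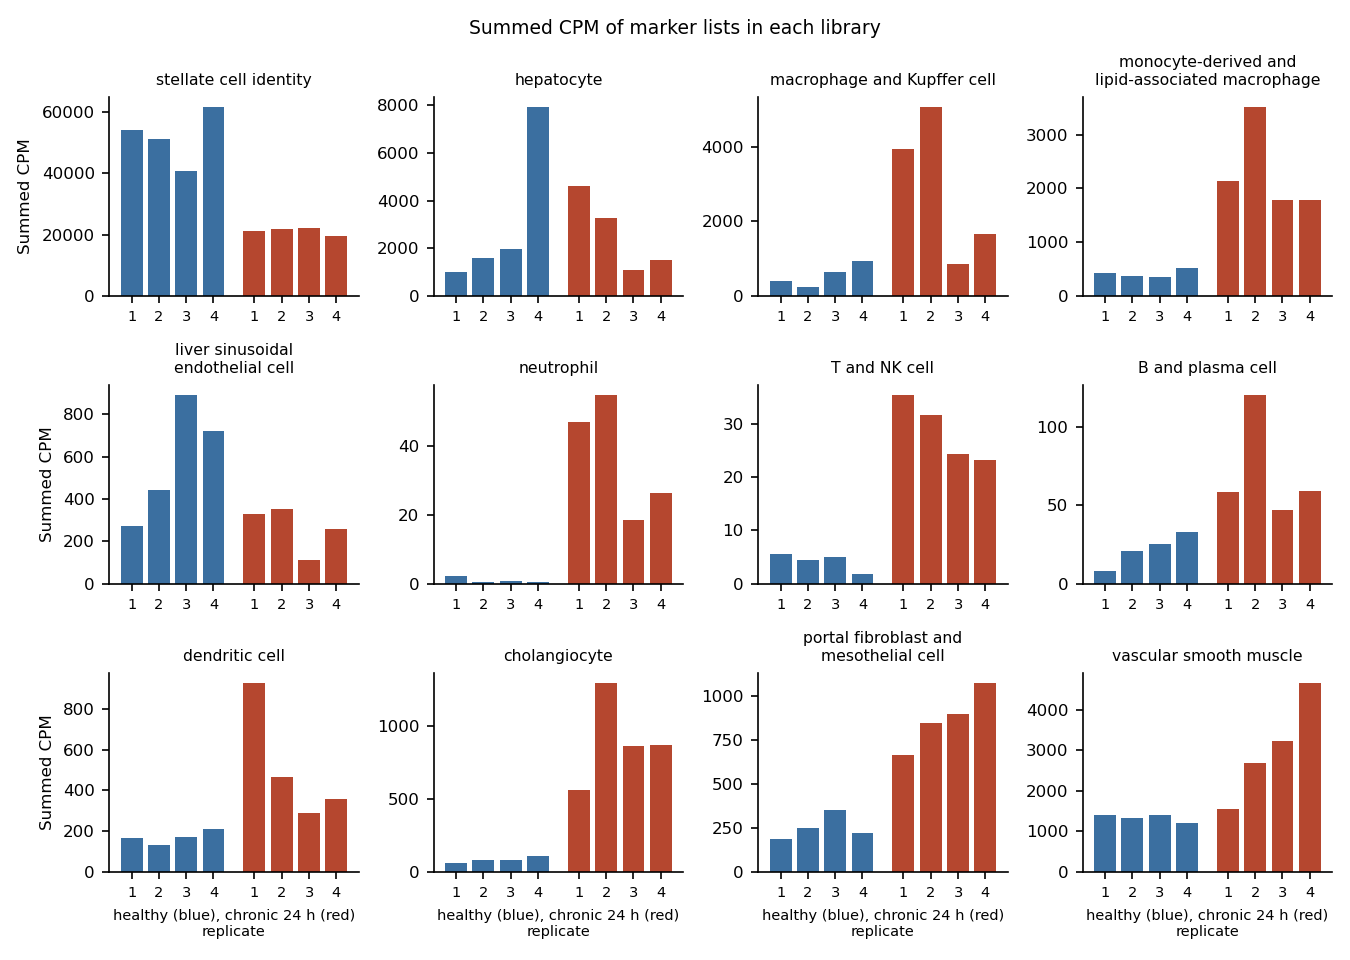
Summed CPM of 12 marker lists in each healthy (blue) and chronic 24 h (red) library, with replicate numbers on the x axis. The identity genes of stellate cells sit at 40760 to 61660 CPM in healthy and 19420 to 22200 CPM in chronic libraries, while the macrophage bars of chronic replicates 1 and 2 reach 3935 and 5063 CPM.

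Across all genes, 2095 were called higher and 1522 lower in the chronic 24 h group, and 7640 had an unadjusted p below 0.05. The libraries of the groups did not overlap for 1697 (81.0%) of the higher and 1096 (72.0%) of the lower genes, against 26.4% of all genes tested. More than 4-fold changes numbered 1000 among the higher and 659 among the lower genes, and more than 16-fold changes 347 and 174. No count was found in any healthy library for 142 of the higher genes, nor in any chronic library for 77 of the lower genes. By class of gene, 1630 protein-coding genes were called higher and 1044 lower. Of 1768 processed pseudogenes tested, 334 (18.9%) were called higher and 46 (2.6%) lower. Of 854 loci of the annotation class TEC, which still await experimental support, 15 (1.76%) were called higher and 188 (22%) lower, and of 658 antisense genes 24 (3.65%) and 80 (12.2%). Reads of processed pseudogenes cannot be told apart with certainty from those of their parent genes, nor antisense reads from those of the opposite gene where strand was not counted; the strand setting is not given in the sources used here.

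**Figure D2:**
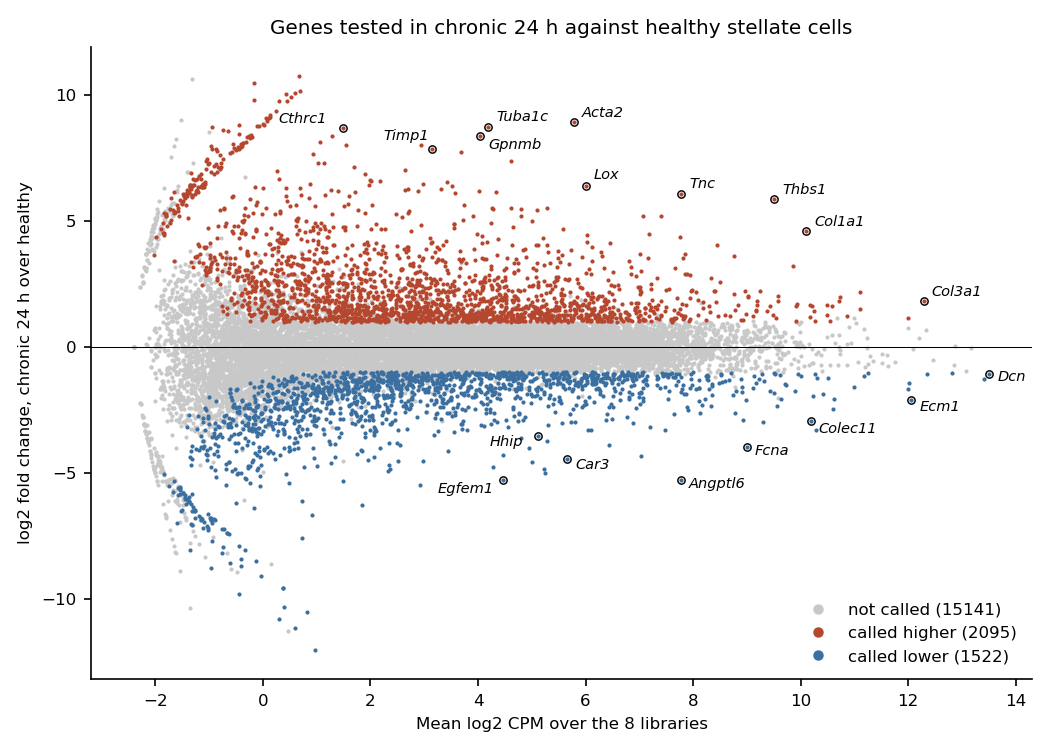
Each point is 1 of the 18758 tested genes, with its mean log2 CPM over the 8 libraries on the x axis and its log2 fold change of chronic 24 h over healthy on the y axis. The 2095 genes called higher are red and the 1522 called lower are blue, and Acta2 lies at a log2 fold change of 8.94.

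Among called genes without overlap whose log2 CPM averaged 3 or more, the largest rises were those of Acta2, Tuba1c, Gpnmb, Timp1, Gpr176, Ch25h, Mmp12, Lox, Has1, Slit3, Col15a1 and Dclk1, in that order. Their log2 fold changes ran from 8.94 down to 6.14. They cover the cytoskeleton (Acta2, Tuba1c), matrix turnover (Timp1, Mmp12, Lox, Col15a1, and the hyaluronan synthase Has1), and sterol metabolism (Ch25h, which makes an oxysterol). Gpr176, an orphan G-protein-coupled receptor, measured 0, 0.975, 0.59 and 2.69 CPM in healthy and 79.4, 161, 320 and 368 CPM in chronic libraries. The groups lay far apart, although the chronic libraries differed among themselves (log2 fold change 7.75, SE 0.73, adjusted p = 4.28e-08; 8.78 without healthy replicate 4). Slit3, a secreted guidance ligand of Robo receptors, was nearly the same in all chronic libraries, at 77.2, 80.9, 90.1 and 88.2 CPM against 0.453, 0.975, 1.43 and 1.39 CPM in healthy libraries (log2 fold change 6.28, SE 0.61, adjusted p = 7.22e-08). Has1 measured 1.18, 0.488, 1.43 and 1.65 CPM in healthy and 93.8, 112, 110 and 87.9 CPM in chronic libraries, with as little spread (log2 fold change 6.39, SE 0.56, adjusted p = 1.55e-08). Gpnmb, a transmembrane glycoprotein of lysosome-rich macrophages, measured 0, 1.46, 1.6 and 1.91 CPM in healthy and 556, 933, 86.1 and 100 CPM in chronic libraries. Its rise of 8.38 (SE 1.03, adjusted p = 1.76e-06) was held by all 4 chronic libraries, was 7.62 without chronic replicate 2, and moved with the macrophage genes summed above.

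The genes that fell most by the same rule were Angptl6, Egfem1, Pcsk6, Mapt, Jmjd8, Ntm, Car3, Gm10800, Gm10801, Ackr4, Dcdc2a and Fcna. Angptl6, a secreted angiopoietin-like factor, measured 1496, 1271, 1756 and 1048 CPM in healthy and 51.4, 28.7, 33 and 29.4 CPM in chronic libraries. The fall was of about the same size in every chronic library (log2 fold change -5.29, SE 0.39, adjusted p = 1.16e-09). Pcsk6, a secreted proprotein convertase, measured 191, 212, 252 and 196 CPM in healthy and 7.34, 5.63, 6.05 and 7.52 CPM in chronic libraries (adjusted p = 6.82e-10), and Fcna, the lectin ficolin A, 2531, 1765, 1839 and 2027 and 133, 141, 113 and 130 CPM (log2 fold change -3.98, SE 0.37, adjusted p = 3.61e-08). Both were tightly grouped on either side. Ackr4, an atypical receptor that scavenges chemokines, fell from a mean of 46.3 to 2.73 CPM, and Dcdc2a, a doublecortin-domain protein, from a mean of 124 to 7.65 CPM. For 4 of the 12 the value is uncertain. Jmjd8, which overlaps Stub1, was at 178, 177, 173 and 5.63 CPM in healthy libraries, with replicate 4 at the chronic level of 3.68 to 5.52 CPM. The predicted genes Gm10800 and Gm10801 are near-identical copies that can share reads; their log2 fold changes of -4.32 and -4.28 were -4.95 and -5.01 without chronic replicate 2, and -3.50 each without healthy replicate 2. Car3, a carbonic anhydrase, was at 79, 153, 168 and 754 CPM in healthy libraries and 8.33 to 20.6 CPM in chronic libraries, with a log2 fold change of -4.44 that was -3.32 without healthy replicate 4.

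The contractile apparatus of smooth muscle was higher as a group. Of 27 members tested, 15 were called higher and 0 lower, with a median log2 fold change of 1.27 against -0.03 over all genes. Acta2, α-smooth muscle actin, measured 1.09, 1.37, 3.12 and 6.93 CPM in healthy and 289, 1055, 2272 and 2563 CPM in chronic libraries. Even the lowest chronic library, replicate 1, was far above the highest healthy one, and the chronic libraries spread widely (log2 fold change 8.94, SE 0.97, adjusted p = 3.29e-07; 9.68 without healthy replicate 4). Tagln, the actin-binding protein transgelin, whose locus overlaps Pcsk7 and Gm48529, measured 168, 97.2, 99.9 and 190 CPM in healthy and 489, 1520, 1806 and 3011 CPM in chronic libraries (log2 fold change 3.62, SE 0.51, adjusted p = 8.35e-06). Cnn1, a calponin of differentiated smooth muscle, stayed low, at 0.272, 0.293, 0.421 and 0.867 CPM in healthy and 1.2, 6.59, 3.51 and 10.6 CPM in chronic libraries (log2 fold change 3.53, SE 0.92, adjusted p = 0.00518). Myh11, the smooth muscle myosin heavy chain, measured 9.79, 8.39, 10.4 and 3.55 CPM in healthy and 10.9, 32.5, 73.9 and 101 CPM in chronic libraries; replicate 1 was barely above the healthy range and replicate 4 far above it (log2 fold change 2.76, SE 0.48, adjusted p = 0.000117). Lmod1, a leiomodin that nucleates actin filaments, rose by 3.49. Flna and Cald1, filamin A and caldesmon, are widely expressed actin-binding proteins, and neither was called, with log2 differences of 0.76 and 0.38. Myh11, Actg2, Cnn1, Tagln and Lmod1 are also markers of vascular smooth muscle, and that list summed to 1555 to 4672 CPM in chronic against 1214 to 1409 CPM in healthy libraries. Its part in the contractile genes was not tested.

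The sequences just upstream of 3 such genes are shown because the contractile and matricellular genes are textbook targets of serum response factor, which binds the CArG box, and of TEAD factors, the DNA-binding partners of the mechanosensitive coactivators YAP and TAZ. They are the 250 bases before the annotated start in RefSeq, build GRCm38.p6, at chr19:34255374-34255623 for Acta2, chr19:36119845-36120094 for Ankrd1 and chr3:145649986-145650235 for Ccn1, all on the minus strand and written 5′ to 3′ in the direction of transcription. Capitals mark matches to the TEAD motif GGAATG on either strand (CATTCC on the other) and to the CArG box with at most 1 inner base differing.
Acta2: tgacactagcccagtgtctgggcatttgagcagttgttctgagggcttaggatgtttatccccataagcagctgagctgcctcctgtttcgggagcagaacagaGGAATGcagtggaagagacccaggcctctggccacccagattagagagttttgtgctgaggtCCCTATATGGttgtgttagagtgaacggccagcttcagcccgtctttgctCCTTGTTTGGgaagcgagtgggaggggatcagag
Ankrd1: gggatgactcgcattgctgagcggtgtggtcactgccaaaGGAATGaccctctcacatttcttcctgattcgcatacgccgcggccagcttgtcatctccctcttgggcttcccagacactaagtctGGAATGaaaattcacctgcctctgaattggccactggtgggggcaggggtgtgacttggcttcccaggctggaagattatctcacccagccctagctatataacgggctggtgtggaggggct
Ccn1: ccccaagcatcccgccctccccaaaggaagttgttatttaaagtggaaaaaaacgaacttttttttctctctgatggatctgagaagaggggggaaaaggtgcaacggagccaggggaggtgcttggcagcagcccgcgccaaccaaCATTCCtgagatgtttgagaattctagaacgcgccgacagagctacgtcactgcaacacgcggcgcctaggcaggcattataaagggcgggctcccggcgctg
The Acta2 window held GGAATG at -146 and CArG-like matches at -84 and -34 from the start, the Ankrd1 window GGAATG at -210 and -123, and the Ccn1 window CATTCC at -103. The same window of Cnn1 held neither motif, and Tagln and Ccn2 had no entry. Of 24 contractile genes with an entry, 11 (45.8%) held GGAATG on either strand and 9 (37.5%) a CArG match with at most 1 inner base differing, against 14.4% and 9.78% of the same windows of all 27025 genes. Among the genes called higher the shares were 15% and 11.2%, and among those called lower 16.6% and 10.6%. Of 17 genes on the list of YAP and TAZ targets, 7 (41.2%) held GGAATG and 1 (5.88%) the CArG match. These are matches of letters in short windows, and binding was not measured.

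Fibrillar collagens rose in part. Of 15 fibrillar and fibril-associated collagens tested, 6 were called higher and 2 lower (median log2 fold change 0.58). Col1a1 and Col1a2 encode the chains of type I collagen, the main protein of scar. Col1a1 measured 187, 282, 304 and 148 CPM in healthy and 3987, 5779, 6302 and 6524 CPM in chronic libraries (log2 fold change 4.62, SE 0.39, adjusted p = 8.93e-09). Col1a2 measured 1025, 1104, 1196 and 868 CPM in healthy and 3618, 4206, 6094 and 4909 CPM in chronic libraries (log2 fold change 2.17, SE 0.26, adjusted p = 1.12e-06). In CPM the order of the 2 chains turned, with Col1a1 below Col1a2 in every healthy library and above it in every chronic one. Per kilobase of annotated exon, merged over all isoforms, Col1a1 was at 35.1 and Col1a2 at 84.4 RPKM in healthy libraries. In chronic libraries they were at 861 and 379 RPKM, and the size of such gaps depends on the annotated lengths. Col3a1, the type III collagen of reticular fibres, was already high, at 2678, 2744, 2619 and 2579 CPM in healthy and 8335, 9561, 11153 and 8744 CPM in chronic libraries (log2 fold change 1.83, SE 0.25, adjusted p = 6.5e-06). Col12a1, which decorates fibrils, rose by 5.21, from a mean of 2.59 to 96 CPM, and Col5a2, a minor fibril chain, by 2.24. Col24a1, a minor fibrillar collagen, fell from a mean of 21.1 to 1.46 CPM (log2 fold change -3.80, SE 0.39, adjusted p = 1.32e-07).

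Among network, basement membrane and other collagens, 8 of 19 were called higher and 2 lower (median 0.85). Col15a1, a multiplexin next to basement membranes, measured 1.18, 1.95, 3.2 and 1.21 CPM in healthy and 99.7, 151, 152 and 157 CPM in chronic libraries. It was close to absent in all healthy libraries and similar in 3 of the 4 chronic ones (log2 fold change 6.20, SE 0.43, adjusted p = 5.03e-10). Col4a5, a chain of basement membrane collagen, measured 0, 1.27, 1.94 and 0.78 CPM in healthy and 20.7, 24.3, 64.4 and 47 CPM in chronic libraries (log2 fold change 5.27, SE 0.66, adjusted p = 2.04e-06). Col8a1, a short-chain network collagen, rose from a mean of 65.1 to 437 CPM. The type VI chains Col6a1 and Col6a2, which form beaded filaments, did not overlap between groups but stayed under 2-fold, with log2 differences of 0.58 and 0.86. Col25a1, a transmembrane collagen best known from neurons, fell by 2.91. Laminins, the other frame of basement membranes, were called in both directions, with 3 of 12 called higher and 1 lower; the one that fell was Lama1, at 134, 187, 180 and 57.6 CPM in healthy and 29.2, 14.7, 23.6 and 20.4 CPM in chronic libraries (log2 fold change -2.67, SE 0.35, adjusted p = 2.92e-06).

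Enzymes that shape collagen rose in part. Of 30 collagen-modifying enzymes and chaperones, 11 were called higher and 1 lower (median 0.62). Lox, the lysyl oxidase that cross-links collagen and elastin, measured 5.62, 7.9, 5.98 and 10.1 CPM in healthy and 276, 412, 1051 and 786 CPM in chronic libraries. Replicates 3 and 4 were higher than replicates 1 and 2, and all were far above the healthy maximum (log2 fold change 6.41, SE 0.53, adjusted p = 6.36e-09). Loxl2 measured 32.7, 23, 20.1 and 20.4 CPM in healthy and 90.7, 199, 246 and 294 CPM in chronic libraries (log2 fold change 3.11, SE 0.41, adjusted p = 3.7e-06), and Loxl1 rose by 1.86. P4ha3, a prolyl hydroxylase subunit, had no count in any healthy library and 1.2, 2.61, 4.38 and 4.32 CPM in the chronic ones, which puts it at least 11.6-fold higher against a floor of 3 counts per healthy library. Serpinh1, the collagen chaperone HSP47, measured 529, 1237, 847 and 2185 CPM in healthy and 2345, 1693, 3944 and 2598 CPM in chronic libraries; the groups overlapped and it was not called (log2 fold change 1.14, SE 0.46, adjusted p = 0.0639). Colgalt2, a collagen galactosyltransferase, was the member that fell, by 4.05.

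Matrix proteases and their inhibitors rose as a group, with 13 of 20 called higher and 2 lower (median 2.44). Timp1, an inhibitor of metalloproteinases whose locus lies within Syn1, measured 0, 1.27, 1.26 and 0 CPM in healthy and 172, 128, 152 and 143 CPM in chronic libraries. Its chronic values spread little (log2 fold change 7.86, SE 1.10, adjusted p = 9.56e-06; 8.48 without healthy replicate 3). Timp2 did not pass the 2-fold limit, with a log2 difference of 0.46. The gelatinase Mmp2 measured 343, 390, 450 and 277 CPM in healthy and 930, 936, 842 and 711 CPM in chronic libraries (log2 fold change 1.23, SE 0.23, adjusted p = 0.000218), and the membrane-bound Mmp14, which activates it, 367, 449, 511 and 320 and 1201, 1306, 1692 and 1628 CPM (log2 fold change 1.82, SE 0.24, adjusted p = 3.04e-06). Neither pair of groups overlapped. Mmp13, a collagenase, measured 0.635, 0.293, 0.674 and 0.693 CPM in healthy and 24.3, 22.9, 3.07 and 8.48 CPM in chronic libraries (log2 fold change 4.63, SE 0.62, adjusted p = 4.89e-06), and Mmp12, the macrophage elastase, 0.272, 0.488, 1.01 and 3.29 and 113, 217, 59.1 and 93.2 CPM (log2 fold change 6.54, SE 0.83, adjusted p = 2.57e-06; 7.63 without healthy replicate 4). For both genes replicates 1 and 2 were highest, as for the macrophage markers. Mmp9, Mmp8, Mmp10 and Mmp27 had no count in any healthy library. Against the floor they were at least 24.2-, 12.1-, 38.7- and 9.27-fold higher; Mmp10 was at 0, 4.53, 13.9 and 23.1 CPM in the chronic libraries, thus also absent from 1 of them, and its bound was 22.9-fold without chronic replicate 4.

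Matricellular proteins and proteoglycans moved in both directions. Of 41 tested, 19 were called higher and 7 lower (median 1.05, or 0.98 with the gene absent from a whole group set to its bound). Tnc, tenascin C, a matrix protein of wounds, measured 13.6, 30, 40.8 and 27.9 CPM in healthy and 1282, 1692, 2453 and 2079 CPM in chronic libraries (log2 fold change 6.06, SE 0.46, adjusted p = 1.83e-09). Thbs1, thrombospondin 1, which can release active TGF-β and whose locus overlaps Gm29233, measured 79.6, 114, 66.5 and 133 CPM in healthy and 4111, 4962, 6723 and 6968 CPM in chronic libraries (log2 fold change 5.86, SE 0.38, adjusted p = 1.53e-10). No healthy library came near the chronic range of either gene. Vcan, the large proteoglycan versican, measured 2.27, 3.8, 1.77 and 0.953 CPM in healthy and 82.3, 69.6, 61 and 48.6 CPM in chronic libraries (log2 fold change 4.89, SE 0.40, adjusted p = 5.07e-09). Fbln2, an elastic fibre protein that is also a marker of portal fibroblasts, measured 2.63, 2.24, 8.51 and 4.94 CPM in healthy and 85.4, 161, 253 and 323 CPM in chronic libraries (log2 fold change 5.48, SE 0.55, adjusted p = 1.08e-07). Cthrc1, a secreted collagen triple helix repeat protein, measured 0.363, 0, 0 and 0 CPM in healthy and 7.94, 32.4, 74.1 and 51.2 CPM in chronic libraries, with replicate 1 the lowest. Its log2 fold change of 8.68 (adjusted p = 9.06e-06) was 11.77 without healthy replicate 1, the only healthy library with a count. Spp1, the cytokine and matrix protein osteopontin, measured 51.8, 60.5, 62.3 and 90.3 CPM in healthy and 513, 1264, 838 and 832 CPM in chronic libraries (log2 fold change 3.70, SE 0.45, adjusted p = 1.42e-06). Postn, periostin, rose by 1.05, a call that was lost without chronic replicate 3 (0.90), healthy replicate 1 (0.99) or healthy replicate 2 (0.98). Lum and Emilin1, both abundant in healthy HSCs, were not called, with log2 differences of 0.37 and 0.74.

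**Figure D3:**
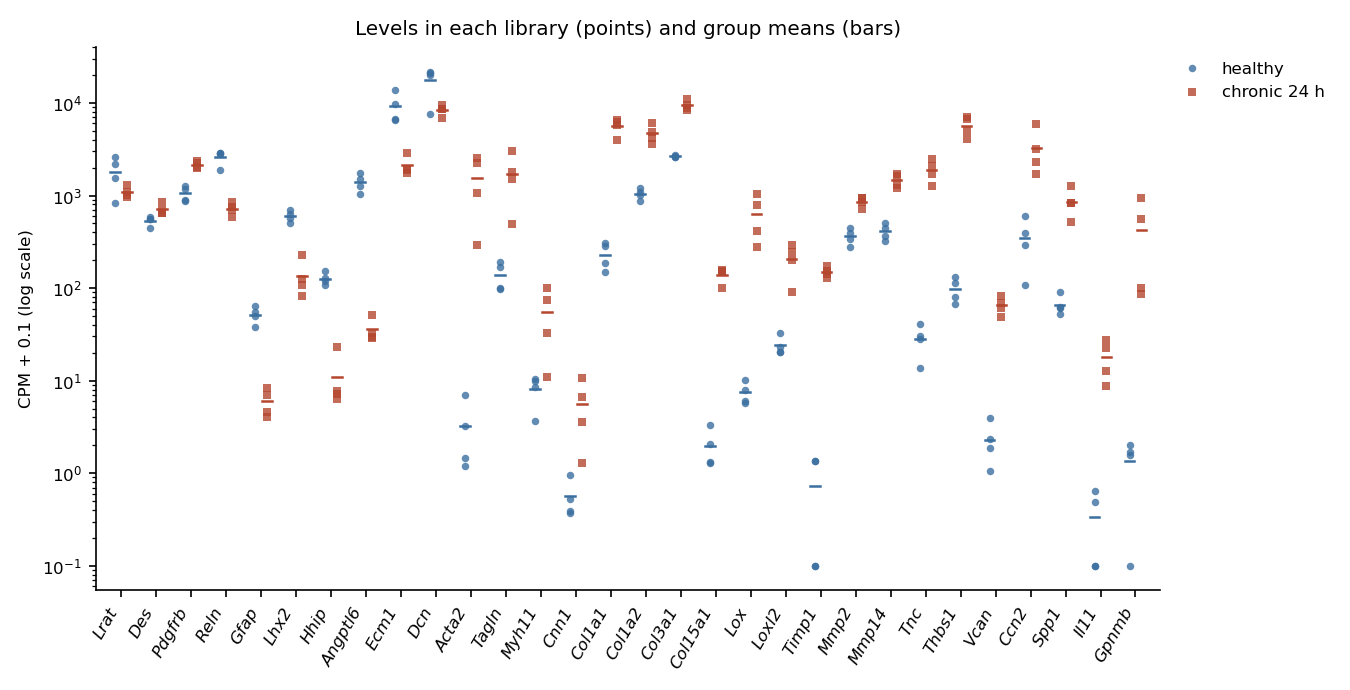
CPM + 0.1 on a log axis of 30 genes in each of the 4 healthy (circles) and 4 chronic 24 h (squares) libraries, with bars at the group means. Identity genes such as Gfap (37.4 to 64.2 CPM healthy, 3.92 to 8.16 CPM chronic) lie to the left and matrix genes such as Tnc (13.6 to 40.8 CPM healthy, 1282 to 2453 CPM chronic) to the right.

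Integrins are the receptors for this matrix: 7 of 31 integrin and focal adhesion genes were called higher and 2 lower (median 0.53). Itga5, the α chain of the fibronectin receptor, measured 46.4, 46.1, 49.9 and 41 CPM in healthy and 301, 414, 350 and 420 CPM in chronic libraries (log2 fold change 3.02, SE 0.30, adjusted p = 9.31e-08). Its partner Itgb1 measured 998 to 1880 CPM in healthy and 1050 to 2355 CPM in chronic libraries and was not called. Itgb2, the β2 chain of leukocytes, was at 1.63 to 7.8 CPM in healthy and 17.7 to 88.8 CPM in chronic libraries with replicates 1 and 2 highest, as for the macrophage genes; its log2 fold change of 3.80 was 4.40 without healthy replicate 4. Of 11 tubulins, 5 were called higher and none lower (median 1.23, or 0.98 with the gene absent from a whole group set to its bound). Tuba1c measured 0.816, 0.683, 0.506 and 1.21 CPM in healthy and 277, 320, 386 and 411 CPM in chronic libraries (log2 fold change 8.74, SE 1.26, adjusted p = 1.37e-05), while Tuba1a and Tuba1b, which encode nearly the same protein, had log2 differences of 0.76 and 0.28. How reads of this family were shared among its members is not stated, so the split between them is uncertain. Tubb6, a β-tubulin, rose from a mean of 128 to 840 CPM (log2 fold change 2.72, SE 0.20, adjusted p = 1.16e-09).

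Transcription factors of the HSC lineage were lower more often than higher. Of 29 tested, 9 were called lower and 4 higher (median -0.47). Lhx2, a LIM-homeobox factor that holds HSCs quiescent in the embryo, measured 511, 635, 698 and 571 CPM in healthy and 225, 125, 108 and 81.9 CPM in chronic libraries (log2 fold change -2.16, SE 0.26, adjusted p = 1.32e-06). Hand2, whose locus overlaps Hand2os1, measured 290, 281, 310 and 218 CPM in healthy and 157, 118, 135 and 87.8 CPM in chronic libraries (log2 fold change -1.14, SE 0.17, adjusted p = 2.47e-05). Gata4, another regulator of quiescence, overlapped between groups and was not called (log2 fold change -0.35, SE 0.16, adjusted p = 0.0999). The rises were in Wt1, the Wilms tumour factor of mesothelium and septum transversum (4.62, 6.34, 2.86 and 2.6 CPM healthy, 104, 71.7, 60.2 and 50.8 CPM chronic; log2 fold change 4.13, SE 0.31, adjusted p = 1.68e-09), in the mesenchymal homeobox factor Prrx1 (1.72, 1.85, 2.11 and 4.51 and 18.4, 34.9, 43.8 and 40.7 CPM; log2 fold change 3.75, SE 0.39, adjusted p = 1.52e-07), in the vitamin D receptor Vdr (0.363, 0.195, 0 and 0 and 6, 3.71, 9.82 and 8.56 CPM; log2 fold change 5.58, 6.61 without healthy replicate 1) and in Pparg. Pparg, which drives fat cell genes, was at 0, 0.878, 1.35 and 1.56 CPM in healthy and 6, 10.2, 0.702 and 2.64 CPM in chronic libraries, overlapped, and lost its call without chronic replicate 2 (1.67).

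Factors linked to activation were called higher in 10 of 36 and lower in none (median 0.46). Runx1 measured 1.09, 0.293, 1.69 and 2.95 CPM in healthy and 17.2, 15.6, 27.7 and 36.6 CPM in chronic libraries (log2 fold change 4.00, SE 0.48, adjusted p = 1.04e-06). Creb3l1, an ER-bound factor that turns on collagen secretion genes, measured 51.9, 69.6, 63.6 and 42.8 CPM in healthy and 317, 280, 273 and 307 CPM in chronic libraries (log2 fold change 2.37, SE 0.20, adjusted p = 6.36e-09). Sox9, a factor of cartilage and bile duct, rose by 1.31, from a mean of 12.3 to 30.4 CPM. Fos and Jun, the AP-1 factors that also respond to cell isolation, were among the most abundant messages in both groups; Fos was at 8864 to 10209 CPM in healthy and 8390 to 9478 CPM in chronic libraries and was not called, and Jun, at 10594 to 12962 CPM in healthy and 5980 to 6621 CPM in chronic libraries, was lower in every chronic library but under 2-fold (log2 fold change -0.96, SE 0.17, adjusted p = 0.000125). Of 15 immediate early genes induced by tissue dissociation, 1 was called higher, Nr4a1, an orphan nuclear receptor (log2 fold change 1.25, SE 0.24, adjusted p = 0.000341).

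Genes of retinoid storage and metabolism were called in both directions. Of 30 tested, 5 were called higher and 3 lower (median -0.24, or -0.20 with genes absent from a whole group set to their bound). Aldh1a2, which makes retinoic acid, had no count in any healthy library and 4.65, 5.63, 2.37 and 2.72 CPM in the chronic ones, at least 14.3-fold higher against the floor. Lpl, the lipoprotein lipase, measured 711, 646, 609 and 655 CPM in healthy and 2019, 2490, 1990 and 1776 CPM in chronic libraries (log2 fold change 1.66, SE 0.19, adjusted p = 7.76e-07). Pnpla3, a retinyl ester lipase of HSCs, fell by 1.82, from a mean of 3.24 to 0.923 CPM. Among lipid droplet and lipogenic genes, 4 of 29 were called higher and 1 lower (median 0.20); Plin2, the coat protein of lipid droplets, was at 243 to 295 CPM in healthy and 178 to 384 CPM in chronic libraries and was not called. Shares this close to the background of 11.2% and 8.11% are no result about the list.

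Neural-type markers, a known trait of HSCs, fell in 11 and rose in 5 of 28 genes (median -0.52). Mapt, the microtubule protein tau, measured 250, 274, 186 and 118 CPM in healthy and 10.8, 5.77, 4.56 and 7.84 CPM in chronic libraries (log2 fold change -4.84, SE 0.43, adjusted p = 1.45e-08). Ntm, the adhesion protein neurotrimin, measured 113, 171, 186 and 157 CPM in healthy and 5.4, 6.59, 8.33 and 5.76 CPM in chronic libraries (log2 fold change -4.58, SE 0.29, adjusted p = 9.68e-11). Ngfr, the p75 neurotrophin receptor, measured 241, 256, 243 and 178 CPM in healthy and 30.7, 31.2, 26.2 and 35.4 CPM in chronic libraries (log2 fold change -2.89, SE 0.42, adjusted p = 1.45e-05). All 3 were lower in every chronic library, as was Syp, synaptophysin, which fell by 3.88. Among the members that rose, Bdnf, brain-derived neurotrophic factor, measured 5.44, 6.83, 2.78 and 4.51 CPM in healthy and 52.9, 85.4, 134 and 105 CPM in chronic libraries (log2 fold change 4.27, SE 0.38, adjusted p = 1.52e-08), and Gdnf, a glial growth factor, had no count in healthy libraries and 0.6, 1.51, 3.86 and 6.64 CPM in chronic ones, at least 11.7-fold higher against the floor (7.4-fold without chronic replicate 4).

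Factors that healthy HSCs secrete, or receptors they carry for liver signals, were lower in 17 and higher in 9 of 40 (median -0.82). Egfem1, an EGF-like secreted protein, measured 150, 134, 124 and 135 CPM in healthy and 2.7, 3.02, 3.24 and 4.8 CPM in chronic libraries (log2 fold change -5.28, SE 0.29, adjusted p = 1.53e-11). Hhip, which binds and blocks hedgehog ligands, measured 128, 118, 152 and 108 CPM in healthy and 22.8, 7.69, 6.23 and 7.12 CPM in chronic libraries, with replicate 1 the least low (log2 fold change -3.54, SE 0.46, adjusted p = 3.19e-06; -4.17 without it). Bmp5, a bone morphogenetic protein whose locus overlaps Gm26903, measured 403, 325, 388 and 485 CPM in healthy and 106, 106, 145 and 139 CPM in chronic libraries (log2 fold change -1.69, SE 0.22, adjusted p = 4.22e-06). Hgf, the hepatocyte growth factor, measured 1093, 1185, 1111 and 1288 CPM in healthy and 433, 461, 742 and 708 CPM in chronic libraries; the groups did not overlap, yet the difference fell just short of the 2-fold limit (adjusted p = 0.00715). Igf1, insulin-like growth factor 1, went up, at 34.4, 37.2, 51.1 and 156 CPM in healthy and 391, 401, 271 and 206 CPM in chronic libraries (log2 fold change 2.18, adjusted p = 0.00711; 2.96 without healthy replicate 4). Wnt5a, a non-canonical Wnt ligand, measured 6.35, 13.2, 10 and 4.16 CPM in healthy and 67.8, 62.7, 99.4 and 107 CPM in chronic libraries (log2 fold change 3.32, SE 0.38, adjusted p = 4.81e-07). In the hedgehog and Wnt list as a whole 9 were called higher and 8 lower of 43; the hedgehog ligand Dhh fell by 3.38, from a mean of 36.9 to 3.56 CPM.

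TGF-β is the main inducer of collagen in HSCs. Its list was called in both directions, with 8 of 46 called higher and 9 lower (median 0.12). Tgfb3 measured 27.1, 38.1, 45.7 and 38 CPM in healthy and 300, 386, 587 and 643 CPM in chronic libraries (log2 fold change 3.69, SE 0.29, adjusted p = 3.02e-09), and Tgfb2 5.8, 6.73, 7.84 and 2.6 and 21.7, 35, 48.5 and 50.1 CPM (log2 fold change 2.76, SE 0.30, adjusted p = 3.18e-07). Tgfb1 did not differ beyond its spread, at 94.6 to 224 CPM in healthy and 135 to 176 CPM in chronic libraries, with an adjusted p of 0.944. Ltbp2, a latent TGF-β binding protein of microfibrils, measured 2.9, 7.02, 9.94 and 4.68 CPM in healthy and 180, 185, 363 and 398 CPM in chronic libraries (log2 fold change 5.52, SE 0.54, adjusted p = 7.53e-08). Fstl3, which binds activin, was found in 1 healthy library, at 0, 0, 6.49 and 0 CPM, and in all chronic ones, at 77.2, 111, 131 and 166 CPM; its log2 fold change of 6.19 was 13.32 without healthy replicate 3. Acvr2b, an activin receptor, fell by 2.57, and the type I receptor Tgfbr1, at 21.4, 99.1, 23.9 and 180 CPM in chronic libraries, was too variable for a call.

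Growth factor and mechanical signalling genes rose in part. Among PDGF, FGF and EGF receptor genes 9 of 29 were called higher and 1 lower (median 0.44). Ereg, the EGF receptor ligand epiregulin, measured 16.2, 27.4, 9.18 and 44.2 CPM in healthy and 140, 247, 532 and 400 CPM in chronic libraries (log2 fold change 3.76, SE 0.48, adjusted p = 2.51e-06). Axl, the receptor of Gas6, measured 225, 297, 306 and 293 CPM in healthy and 1423, 1140, 1388 and 1331 CPM in chronic libraries (log2 fold change 2.24, SE 0.15, adjusted p = 2.26e-10). Pdgfra, at 526 to 823 CPM in healthy and 500 to 949 CPM in chronic libraries, was not called. Of 23 listed targets of YAP and TAZ, 11 were called higher and 3 lower, with a median of 0.09. Ccn2, connective tissue growth factor, measured 108, 595, 293 and 396 CPM in healthy and 1721, 2331, 5854 and 3165 CPM in chronic libraries (log2 fold change 3.23, SE 0.85, adjusted p = 0.00553). Ankrd1, a muscle ankyrin repeat protein, measured 1.63, 0.585, 0.758 and 3.64 CPM in healthy and 8.24, 28.4, 83.8 and 42.7 CPM in chronic libraries; its log2 fold change of 4.61 (adjusted p = 5.14e-05) was 3.99 without chronic replicate 3 and 5.35 without healthy replicate 4. Ccn1, high in all libraries at 1776 to 4286 CPM in healthy and 4409 to 8043 CPM in chronic libraries, rose by 1.14, a call lost without chronic replicate 2 (0.99) or healthy replicate 3 (0.96). Amotl2 and Lats2, negative regulators within the same pathway, were not called.

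Chemokines and their receptors were called higher in 26 of 43 and lower in 4 (median 2.11, or 1.90 with genes absent from a whole group set to their bound). In the higher-depth libraries alone the counts were 21 and 4. Here and below this means the fit without chronic 24 h replicates 1 and 2, which kept the libraries of all other groups. Several of these genes are typical of leukocytes: Ccr2, the receptor that draws monocytes, measured 1.72, 1.07, 1.69 and 5.81 CPM in healthy and 54, 47.5, 25.5 and 35.8 CPM in chronic libraries (log2 fold change 3.97, adjusted p = 1.12e-06; 4.75 without healthy replicate 4). Cxcl14 measured 3.44, 2.15, 2.36 and 8.84 CPM in healthy and 238, 46.4, 213 and 280 CPM in chronic libraries, with replicate 2 the lowest, unlike the macrophage markers (log2 fold change 5.53, SE 0.62, adjusted p = 4.99e-07; 6.19 without healthy replicate 4). Ccl2, the ligand of Ccr2, was at 29.6, 19.1, 86.6 and 228 CPM in healthy and 156, 757, 473 and 388 CPM in chronic libraries; the groups overlapped, and its call (log2 fold change 2.29, SE 0.79, adjusted p = 0.0308) was lost when any of 5 libraries was left out (chronic 2 or 3, healthy 1, 2 or 3), with log2 fold changes of 1.90 to 2.26, and rose to 3.30 without healthy replicate 4. Cxcl12, which holds lymphoid and blood precursors and is abundant in healthy HSCs, measured 6088, 7747, 8231 and 8647 CPM in healthy and 2626, 3557, 5158 and 3326 CPM in chronic libraries (log2 fold change -1.07, SE 0.22, adjusted p = 0.000825; -0.94 and no call without chronic replicate 1).

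Of 29 genes of the IL-6 family, interleukins and TNF, 14 were called higher and 2 lower (median 1.29). Il11, an IL-6 family cytokine made by fibroblasts, measured 0.544, 0.39, 0 and 0 CPM in healthy and 8.69, 27.7, 12.5 and 22.6 CPM in chronic libraries (log2 fold change 6.24, SE 0.59, adjusted p = 4.14e-08; 7.08 without healthy replicate 1). Il6 measured 4.71, 3.8, 2.02 and 5.46 CPM in healthy and 8.84, 16.7, 33.9 and 24 CPM in chronic libraries (log2 fold change 2.38, SE 0.43, adjusted p = 0.00017). Both had their lowest chronic value in replicate 1. Tnf, a macrophage cytokine, measured 1.72, 1.27, 0.843 and 7.54 CPM in healthy and 87.5, 179, 25.3 and 42.2 CPM in chronic libraries, highest in replicates 1 and 2 (log2 fold change 4.87, adjusted p = 3.42e-05; 4.17 without chronic replicate 2 and 6.02 without healthy replicate 4). Il1rn, the antagonist of the IL-1 receptor, followed the same order of replicates, at 0.0907, 1.46, 0.337 and 1.47 and 90.7, 116, 15.9 and 32.3 CPM (log2 fold change 6.23, SE 0.76, adjusted p = 1.42e-06). The receptor subunits were less changed: Il6st, the shared gp130 chain, was at 730 to 1005 CPM in healthy and 793 to 1194 CPM in chronic libraries and was not called. Interferon-stimulated genes moved in both directions, with 6 of 28 called higher and 2 lower. In the higher-depth libraries alone 2 were called higher and 11 lower, and 9 were lower without chronic replicate 1. Gbp4, an interferon-induced GTPase, was at 307, 243, 297 and 355 CPM in healthy and 996, 153, 101 and 80 CPM in chronic libraries, so that replicate 1 stood above and the other chronic replicates below the healthy range (log2 fold change 0.14, SE 0.55, adjusted p = 0.87).

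Genes of secretion and metabolism rose in several lists. Of 40 genes of the unfolded protein response and ER folding, 10 were called higher and none lower (median 0.76). Kdelr3, a receptor that returns ER proteins, measured 40.2, 31, 32.9 and 34.7 CPM in healthy and 135, 225, 264 and 251 CPM in chronic libraries (log2 fold change 2.66, SE 0.27, adjusted p = 9.69e-08), while Hspa5, the ER chaperone BiP, was at 1038 to 2274 CPM in healthy and 1470 to 3402 CPM in chronic libraries and was not called (log2 fold change 0.80, SE 0.33, adjusted p = 0.0655). ATF4 targets were higher in 12 of 28 and lower in none (median 0.94); Slc7a5, an importer of large amino acids, measured 5.71, 7.12, 11 and 8.23 CPM in healthy and 51.4, 39.8, 55.1 and 71.4 CPM in chronic libraries (log2 fold change 2.76, SE 0.27, adjusted p = 8.28e-08). Glycolysis and hypoxia genes were higher in 9 of 29 and lower in none (median 0.81), led by the hexokinase Hk2, at 4.17, 4.19, 3.12 and 1.91 CPM in healthy and 54.4, 61.5, 98.4 and 86.2 CPM in chronic libraries (log2 fold change 4.49, SE 0.25, adjusted p = 1.53e-11). Cholesterol genes were higher in 10 of 28 and lower in none (median 0.94), with 16 higher in the higher-depth libraries alone and 6 without chronic replicate 4. Ch25h measured 2.54, 1.76, 1.26 and 1.99 CPM in healthy and 233, 414, 403 and 200 CPM in chronic libraries (log2 fold change 7.36, SE 0.47, adjusted p = 1.11e-10). Subunits of oxidative phosphorylation were mostly not called, with 3 of 75 higher (median 0.22); the count was 1 without healthy replicate 2 and 5 without chronic replicate 4. Cytosolic ribosomal protein genes were called higher in 25 of 76 and lower in none (median 0.99); these genes share reads with many processed pseudogenes, and the count was 15 without healthy replicate 3 or chronic replicate 3 and up to 30 without others.

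Lysosomal genes were called higher more often than lower. Of 30 cathepsin and lysosome genes, 16 were called higher and 1 lower (median 1.02), and in the higher-depth libraries alone 10 and 2. Ctss, the cathepsin of macrophages, was at 17.7, 9.85, 18 and 38.3 CPM in healthy and 369, 422, 79.7 and 123 CPM in chronic libraries, with replicates 1 and 2 highest (log2 fold change 3.56, SE 0.52, adjusted p = 1.38e-05). Ctsk, a collagen-degrading cathepsin, measured 19.7, 19.9, 16.7 and 11.3 CPM in healthy and 80.9, 77.3, 114 and 95.4 CPM in chronic libraries, with replicates 3 and 4 highest (log2 fold change 2.45, SE 0.25, adjusted p = 1.46e-07). Among complement and coagulation genes 11 of 32 were called higher and 2 lower (median 0.52). Plat, tissue plasminogen activator, measured 19.2, 31.9, 27.1 and 12.9 CPM in healthy and 851, 1023, 790 and 713 CPM in chronic libraries (log2 fold change 5.21, SE 0.32, adjusted p = 8.91e-11), and the urokinase receptor Plaur 1.45, 1.95, 1.52 and 4.51 and 52.3, 88.3, 72.7 and 95.8 CPM (log2 fold change 5.03, SE 0.41, adjusted p = 4.27e-09). Of 9 S100 genes, 5 were called higher and none lower (median 2.43); S100a6, calcyclin, measured 1.36, 1.37, 0 and 0 CPM in healthy and 31.2, 44.8, 156 and 123 CPM in chronic libraries (log2 fold change 7.04, SE 0.76, adjusted p = 2.96e-07; 7.65 without healthy replicate 1). Of 36 replication and mitosis genes, 2 were called higher and 6 lower (median -0.65). Mki67, the proliferation antigen, was at 9.7, 26.2, 23.3 and 4.59 CPM in healthy and 12.1, 10.6, 1.84 and 1.92 CPM in chronic libraries, overlapped, and was not called (log2 fold change -1.31, SE 0.60, adjusted p = 0.102). Cdkn1a, the cell cycle inhibitor p21, was at 4.29 to 20.6 CPM in healthy and 3.24 to 7.49 CPM in chronic libraries and was not called either.

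Antioxidant, clock and p53 genes were called at shares not far from those over all genes, 11.2% higher and 8.11% lower. Such counts are no result about these lists. Of 30 NRF2 antioxidant genes, 3 were called higher and 4 lower, with 1 higher without healthy replicate 2 and 5 without chronic replicate 3. Hmox1, the haem-degrading oxygenase, rose from a mean of 33.4 to 142 CPM, and Sod3, the extracellular superoxide dismutase, fell from a mean of 7488 to 2368 CPM (log2 fold change -1.66, SE 0.26, adjusted p = 2.95e-05). Of 18 clock genes, 2 were higher and 1 lower, led by Nfil3, a repressor in the clock, at 13.1, 46.1, 25.4 and 23 CPM in healthy and 263, 230, 195 and 111 CPM in chronic libraries (log2 fold change 2.89, SE 0.39, adjusted p = 5.12e-06). Of 25 p53 targets and inhibitors of the cell cycle, 3 were higher and 1 lower, but 0 were higher and 4 lower in the higher-depth libraries alone, and 4 were lower without chronic replicate 1. The one that fell in the full set was Igfbp3, which binds insulin-like growth factors (1174 to 1762 CPM in healthy and 275 to 986 CPM in chronic libraries; log2 fold change -1.46, SE 0.32, adjusted p = 0.0011).

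**Figure D4:**
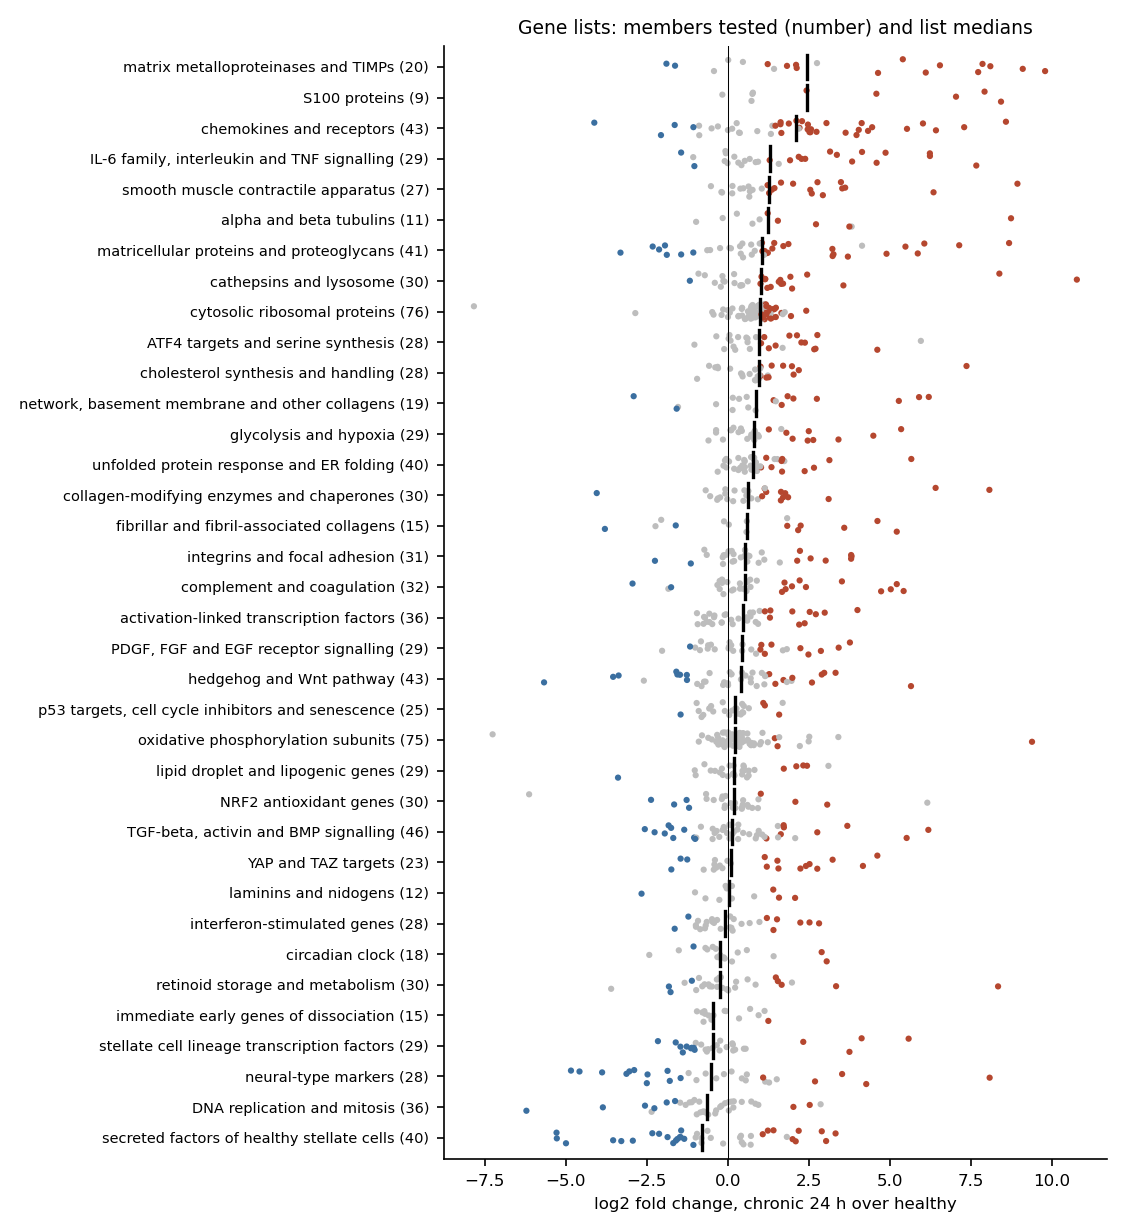
Log2 fold change of chronic 24 h over healthy (x axis) for every tested member of 36 function lists (rows, number tested in brackets), with called genes in red or blue, others in grey and list medians as black bars. The medians run from -0.82 for secreted factors of healthy stellate cells to 2.44 for matrix metalloproteinases and TIMPs.

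The study itself drew up lists of initiatory and of fibrogenic genes. Of its 72 initiatory genes tested, 65 were called higher and none lower, and of its 172 fibrogenic genes 170 were called higher and none lower, with medians of 2.74 and 3.97 (3.73 with 14 genes absent from a whole group set to their bound). The fibrogenic list was chosen on the chronic and healthy libraries themselves, so its count is not independent evidence of its direction. The initiatory list came from the acute 24 h libraries set against the healthy ones, together with cultured HSCs that are not analysed here, and shares the healthy libraries with this contrast. According to the paper, most initiatory genes are also on the fibrogenic list, so the counts of the lists are not separate results.

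A direct contrast with the 3 libraries taken 24 h after a single CCl4 injection (acute 24 h; mice of 10 to 12 weeks, the same dose) called 2036 genes higher (10.9%) and 573 lower (3.05%) in the chronic group, 13.9% in all. Many matrix genes were higher after repeated injury. This contrast and the next share the chronic 24 h libraries with the one above. Fibrillar collagens were higher in 10 of 15, network collagens in 11 of 19, and metalloproteinases and TIMPs in 14 of 20. Against healthy libraries those counts were 6, 8 and 13. Col1a1 had a mean of 565 CPM in acute 24 h against 5648 CPM in chronic 24 h libraries (log2 difference 3.32, adjusted p = 4.68e-06), and Col15a1 4.39 against 140 CPM (4.99, adjusted p = 1.26e-07; 5.59 without acute replicate 1). Ltbp2 (6.31, or 6.92 without acute replicate 1), Serpine2, a protease inhibitor of fibroblasts (5.74), Fbln2 (5.91) and Wnt5a (4.54) were also higher after repeated injury. For Ltbp2, Fbln2 and Wnt5a this difference was larger than the one against healthy given above, so their acute 24 h level lay below the healthy one. For Col1a1 and Col15a1 it was smaller. Contractile genes differed in fewer members, 5 of 27 higher and none lower, and 3 higher without acute replicate 2 or 3 or chronic 24 h replicate 4. Acta2 was higher (2.72, adjusted p = 0.0183), a call that was lost in each of those fits (adjusted p = 0.0649, 0.0776 and 0.0527), while Tagln had means of 1692 and 1707 CPM and a log2 difference of 0.01 (adjusted p = 0.996). Lower after repeated injury were Il11 (-2.87), Fosl1, an AP-1 factor (-3.12), Cdkn1a (-4.68, or -2.77 without acute replicate 2), Hgf (-1.49) and Hhip (-4.89, or -5.52 without chronic 24 h replicate 1), the last with a mean of 322 CPM in acute 24 h libraries. Macrophage genes were higher in 14 of 19 and hepatocyte genes in 14 of 20 against acute 24 h (9 of 19 without acute replicate 3, and 9 of 20 without acute replicate 1 or 2), and their part in this contrast was not tested.

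Against the 4 libraries taken 72 h after the last injection of the same course (chronic 72 h), 684 genes were higher (3.65%) and 886 lower (4.72%) at 24 h, 8.37% in all. With scaling by library size alone the counts were 529 and 1081. The contractile genes were higher at 24 h in 21 of 27 and lower in none, and the tubulins in 6 of 11. Against healthy libraries 15 and 5 were higher. Acta2 had a mean of 11.2 CPM at 72 h against 1545 CPM at 24 h (log2 difference 7.09, adjusted p = 1.2e-05), and Tagln 84.9 against 1707 CPM (4.33, adjusted p = 7.83e-06). Without chronic 72 h replicate 4, which held the most of both, the differences were 8.52 and 4.97. Chronic 72 h and healthy libraries overlapped for both genes. Acta2 was at 2.49 to 32 CPM at 72 h and 1.09 to 6.93 CPM in healthy libraries. Tagln was at 43.7 to 176 CPM at 72 h and 97.2 to 190 CPM in healthy libraries. Unfolded protein response genes were higher at 24 h in 15 of 40 and lower in none, beside 10 higher against healthy. Collagens differed less: fibrillar collagens were higher in 1 and lower in 2 of 15 (2 higher without chronic 24 h replicate 3), and Col1a1, Col1a2 and Col3a1 were not called, with log2 differences of 0.42, 0.07 and -0.27. Lox (3.00), Tnc (3.38), Thbs1 (2.68) and Timp1 (3.71) were higher at 24 h. Mmp2, at a mean of 855 CPM at 24 h and 1626 CPM at 72 h, was not called (-0.93). Gfap (-1.89), Angptl6 (-2.47) and Cxcl12 (-1.43) were lower at 24 h than at 72 h, as was Lhx2 (-1.10), whose call was lost without chronic 24 h replicate 4 (-0.95).

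**Figure D5:**
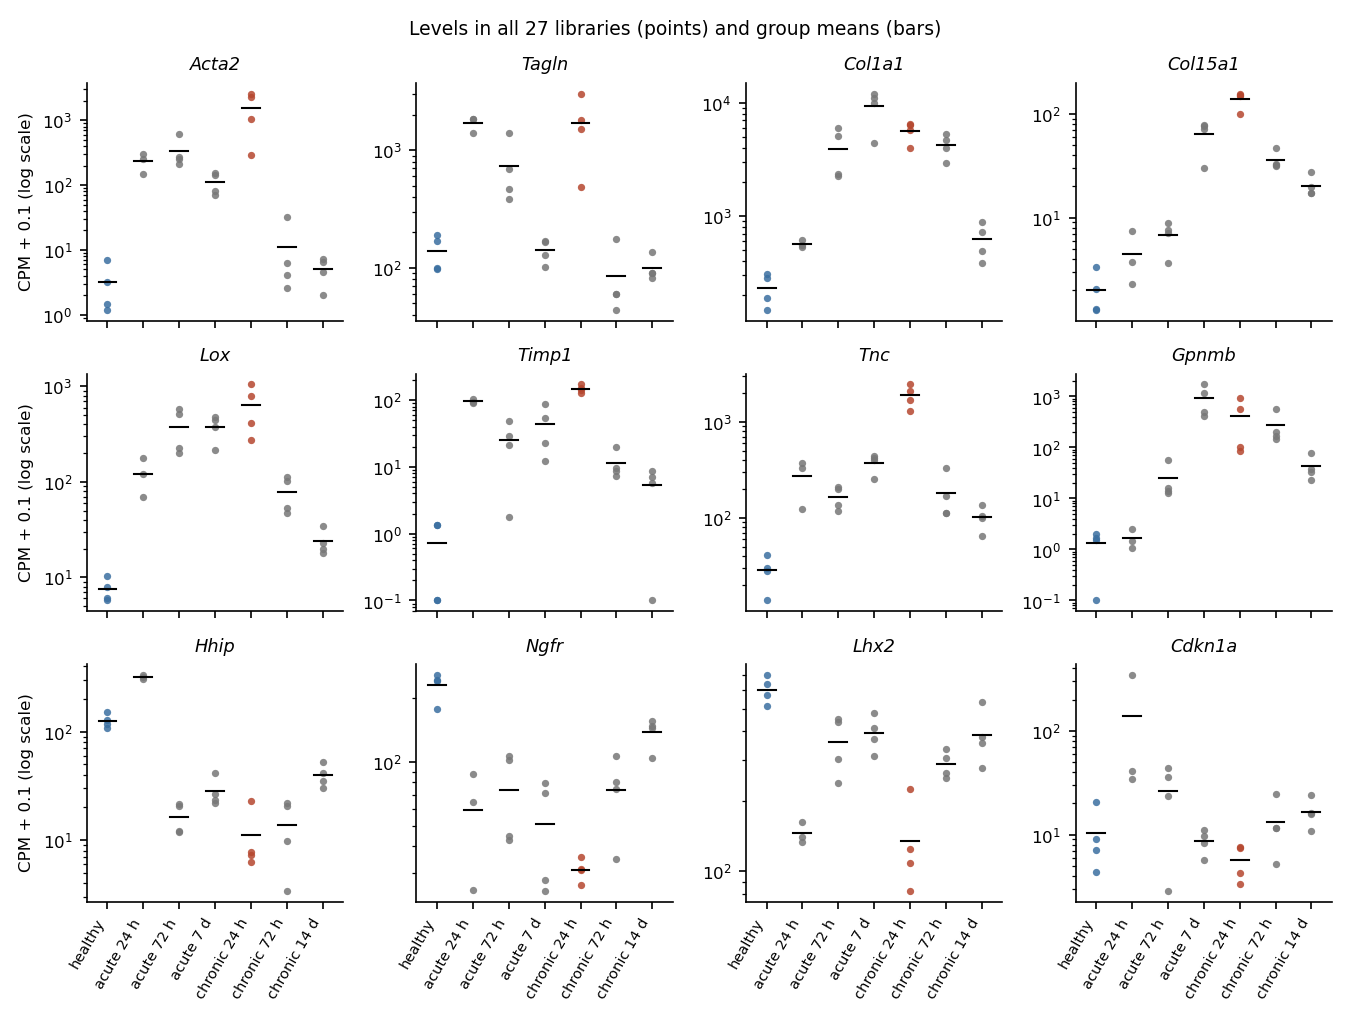
CPM + 0.1 on a log axis of 12 genes in all 27 libraries, by group, with points for libraries and bars for group means; healthy is blue, chronic 24 h red and the other 5 groups grey. Acta2 means are 3.13 CPM in healthy, 234 CPM in acute 24 h, 1545 CPM in chronic 24 h and 11.2 CPM in chronic 72 h libraries.

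Within the chronic 24 h group 2 sets of genes differed between the libraries. The macrophage genes were highest in replicates 1 and 2 (Gpnmb 556, 933, 86.1 and 100 CPM, Tnf 87.5, 179, 25.3 and 42.2 CPM), and several contractile and matrix genes were lowest in replicate 1 (Acta2 289, 1055, 2272 and 2563 CPM, Tagln 489, 1520, 1806 and 3011 CPM, Lox 276, 412, 1051 and 786 CPM, Ankrd1 8.24, 28.4, 83.8 and 42.7 CPM). Replicates 1 and 2 were also the libraries of lower depth, and depth, macrophage content and these levels cannot be told apart with 4 libraries. Low depth occurred only in chronic groups. Chronic 72 h replicates 1 and 2 held 7107719 and 6521748 counts, and the chronic 14 d libraries 6314801 to 7437315. Every healthy and acute library held at least 10792560 counts. The reason for this pattern was not tested. Left with chronic replicates 3 and 4 alone, 17 contractile genes were called higher, 13 metalloproteinases and TIMPs and 6 fibrillar collagens, against 15, 13 and 6 with all libraries. Of the genes named here, Ccl2, Ccn1, Cxcl12, Igf1, Jmjd8, Nr4a1, Pparg, Retnlg and Sox9 lost their call in that fit.

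By level per kilobase of annotated exon, the protein-coding genes at the top differed in part between the groups. In healthy libraries Plvap, a protein of endothelial diaphragms, led with 5263 RPKM, and Igfbp7, a secreted binding protein, was at 3982 RPKM, with the AP-1 genes Junb, Fos and Jun between 3784 and 4127 RPKM. In chronic libraries Fos led with 3833 RPKM, followed by Igfbp7 at 3727 and the lipid carrier Apoe at 3671 RPKM. Ecm1 and Dcn, the small proteoglycan decorin, were among the highest 10 in healthy libraries (3652 and 3017 RPKM) and not in chronic ones (837 and 1438 RPKM), where Ccn1 (3107 RPKM) and Lum, the proteoglycan lumican (2225 RPKM), entered. Dcn was at 20919, 20131, 7652 and 21763 CPM in healthy libraries, with replicate 3 far below the rest, and at 8648, 9445, 8534 and 6953 CPM in chronic ones; its call (log2 fold change -1.07, SE 0.26, adjusted p = 0.00292) was lost without chronic replicate 4 or healthy replicates 1, 2 or 4, at log2 differences of -0.99 to -0.95. Plvap lost its call (log2 fold change -1.02, SE 0.24, adjusted p = 0.00182) without chronic replicates 3 or 4 or healthy replicates 2 or 3, at -0.90, -0.96, -0.98 and -0.95. Apoe measured 10286, 11398, 4390 and 5318 CPM in chronic libraries, higher in replicates 1 and 2 and lower in replicates 3 and 4 than the healthy range of 7144 to 8563 CPM.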

How the data were processed

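Bulk RNA-seq of sorted mouse hepatic stellate cells gave 27 libraries in 7 groups, of which 4 chronic 24 h and 4 healthy libraries are compared here. The authors deposited 1 table of raw read counts per gene for all libraries. According to the methods, single-end reads were checked and trimmed with FastQC, aligned with STAR to GRCm38.p6 and assembled with StringTie; versions, annotation release, strand setting and the step to counts are not given in the sources used here. Depth was 6947304 to 13045948 counts per chronic and 10792560 to 12596066 per healthy library, and no unmapped column was left.

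Gene IDs were matched to GENCODE M21 (53274 of 53379; the table holds 16198 genes with no count). Genes were filtered with filterByExpr by group, leaving 18758, scaled by TMM and fitted over all 27 libraries with 1 mean per group by edgeR 4.0.16 (glmQLFit, robust; glmQLFTest) in R 4.3.3 with limma 3.58.1. p-values were adjusted by Benjamini-Hochberg over all genes tested. A gene was called where its adjusted p was below 0.05 and it differed by more than 2-fold; p-values measure the spread between these libraries. CPM are counts relative to the TMM-scaled library total, RPKM the same per kilobase of annotated exon, and the prior count for log2 CPM was 2. DESeq2 1.42.0 and other scalings, filters, library sets and a replicate block were alternatives. The fit was tested on simulated counts. No pair of replicates agreed within sampling noise. Tables were made with Python 3.11.15 and pandas 2.3.3 and plots with matplotlib 3.10.9.

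Named genes followed a rule that takes the 12 largest changes each way, up to 5 called and 2 uncalled members of each list, a set of defining genes, all cell-type markers, the most abundant genes and the most variable ones. It covers 418 genes, of which 171 are named in the text; the others enter the counts of lists. Members, lists and rule were chosen with earlier results of these data known. Genes with no count in a whole group are given as bounds against a floor of 3 counts per library. Promoter windows came from RefSeq (GRCm38.p6).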

Additional observations from a re-analysis of the deposited data

Results flagged for a closer look

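Among 171 genes named in the text, 28 values lay far from the other 3 libraries of their group, in that the gap to the nearest of them, as a share of the group's range, passed Dixon's 95% critical value. The check covered 331 groups of 4 libraries, and chance alone would flag about 1 in 20. Healthy replicate 4 gave 6 of them and chronic replicate 1 gave 5. No explanation was tested.

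In the healthy group, replicate 4 was low for Colec11 (2597 CPM, others 3481 to 3542), Reln (1909 CPM, others 2802 to 2898), Ngfr (178 CPM, others 241 to 256), Col24a1 (13.3 CPM, others 23.4 to 23.9), Fosl1 (0 CPM, others 1.94 to 2.83) and Jmjd8 (5.63 CPM, others 173 to 178). Replicate 1 was low for Axl (225 CPM, others 293 to 306), Timp2 (1244 CPM, others 1494 to 1519) and Gpnmb (0 CPM, others 1.46 to 1.91), and replicate 2 for Mmp13 (0.293 CPM, others 0.635 to 0.693). Replicate 3 was low for Dcn (7652 CPM, others 20131 to 21763). Some genes were found in 1 healthy library alone: Cthrc1 in replicate 1 (0.363 CPM), Actg2 in replicate 2 (0.195 CPM), and Fstl3 (6.49 CPM) and Trem2 (0.253 CPM) in replicate 3.

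In the chronic 24 h group, replicate 1 was low for Igfbp7 (1602 CPM, others 5236 to 5740) and Col15a1 (99.7 CPM, others 151 to 157) and high for Colec11 (619 CPM, others 349 to 380), Sod3 (3357 CPM, others 1993 to 2117) and Hhip (22.8 CPM, others 6.23 to 7.69). Replicate 2 was low for Cxcl14 (46.4 CPM, others 213 to 280) and Dclk1 (127 CPM, others 186 to 198). Replicate 3 was low for Mmp9 (2.72 CPM, others 7.28 to 8.24), and Mpo, a neutrophil enzyme, was found in replicate 4 alone (0.48 CPM). Morf4l2 was near 0 in healthy replicate 3 (1.01 CPM, others 223 to 285) and chronic replicate 4 (2.8 CPM, others 372 to 557), Filip1l in chronic replicate 2 (1.24 CPM, others 455 to 731) and Plekha2 in chronic replicate 4 (2.08 CPM, others 118 to 154).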

How the results depend on the processing

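The counts of 2095 higher and 1522 lower genes stayed within 1.5 times of themselves under all alternatives but 1: a test against a 2-fold minimum called 925 higher and 509 lower, which follows from its stricter null. Leaving out single libraries gave 1926 to 2116 higher and 1288 to 1743 lower genes, DESeq2 2164 and 1773, the 8 libraries fitted alone 1597 and 1098, and chronic replicates 3 and 4 alone 1981 and 1641, of which 1666 and 1160 were shared with the full set. A replicate block gave 2056 and 1491, and no named gene lost its call under it. Correlations of deviations between same-numbered healthy and chronic 24 h libraries were -0.17 to 0.01, which gave no sign of pairing between these groups. Other groups were not checked, and replicates 1 and 2 were the libraries of lower depth in both chronic 24 h and chronic 72 h. Of the named genes, Gbp4, not called in the full set, reversed with the higher-depth libraries alone (-1.73) and ranged from -1.43 without chronic replicate 1 to 0.48 without chronic replicate 4; the cause was not tested. Of 27 list counts of 1 to 3 genes, 15 moved by over 1.5 times when some single library was left out, and of 50 larger ones 5. In data simulated for this comparison with 200 genes changed at a log2 fold change of 2, 47 of 107 below the median level and 85 of 93 above it were recovered, with 2 false calls. Depth differs within the chronic group, the controls received no oil, and the cells were gated on vitamin A.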

Other observations

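For 62 genes with a group median of at least 30 CPM, at least 1 library lay below 1/20 of its group's median, and for 10 of them 2 libraries of a group did. Examples are Plekha2 (5.98, 4.19, 148 and 2.08 CPM in healthy and 154, 118, 149 and 2.08 CPM in chronic libraries), Morf4l2 (250, 223, 1.01 and 285 and 372, 519, 557 and 2.8 CPM), Filip1l (234, 299, 201 and 295 and 455, 1.24, 731 and 492 CPM) and Tmbim6 (271, 419, 496 and 477 and 416, 351, 10.7 and 8.4 CPM). Every library had some: 5, 11, 12 and 15 in the healthy and 8, 7, 9 and 10 in the chronic replicates. Of the 62 genes, 33 (53.2%) overlap another tested gene, against 2264 (35%) of 6472 genes of that level. Among these 62 genes, 1 was called higher and 2 lower, against 11.2% and 8.11% of all genes tested. A near-zero library widens the spread of its group, so this count does not show whether the groups differed. The genes shown were taken by the fixed rule for the most variable chronic genes. The reason for these drops was not tested.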
